A study of Mus musculus with 6 samples.

Results

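The 10 genes described here are made by the oocyte, and 5 of them (*Nlrp5*, *Ooep*, *Tle6*, *Khdc3* and *Padi6*) belong to the subcortical maternal complex or its surroundings. The other 5 (*Zar1*, *Gdf9*, *Zp3*, *H1foo* and *Oosp1*) are oocyte genes with other roles. They were chosen by symbol and not by their values, though with earlier results of these data known. Each was found in 1 of the 55774 rows of the expression table through its Ensembl identifier. RNA had been sequenced from 6 pools of 10 blastocysts, grown from two-cell embryos that were taken from the oviducts of ICR mice of wild-type genotype and cultured in CZB medium. Vesicles from the Fallopian tubes of women with endometriosis (oEV-EMT) had been added to 3 pools and vesicles from women without it (oEV-ctrl) to the other 3. All embryos thus received human vesicles, and the controls were labelled as coming from women with uterine fibroids, while the methods of the study name cervical intraepithelial neoplasia. How the donors were divided over the pools is not given in the sources used here, so that p-values measure the spread between these pools only.

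The subcortical maternal complex is a protein assembly under the surface of the oocyte that is built from maternal transcripts and is needed for the embryo to pass the first cleavages. Most mRNAs of the growing oocyte, those of the zona pellucida and of secreted growth factors included, are degraded around meiotic maturation and the activation of the embryonic genome. A blastocyst is therefore formed long after the peak of these transcripts, although *Khdc3* is also known as a transcript of embryonic stem cells.

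Levels are in FPKM, that is fragments per 1000000 fragments and per kilobase of a transcript, a scale on which genes can be compared. Low FPKM of long genes with a single transcript fell on steps, and 1 step was taken as 1 read. The reads were paired, so that a fragment can give more than 1 read. This gave 37.4 to 75.5 reads per FPKM and kilobase, with a ratio of 2.02 between the deepest library, oEV-EMT 1, and the shallowest, oEV-ctrl 1. A gene was tested when its FPKM was at least 1 in at least 3 libraries, which left 11924 genes, and groups were compared as log2(FPKM + 1) with limma. On this scale the change of low genes is understated. The median log2 fold change of all tested genes was 0.17, and after median-of-ratios scaling it was 0.01. Entries named new_gene, which carry no symbol, held 37.1% to 45.7% of the summed FPKM of a library. The markers of the blastocyst lineages were present, with all 9 trophectoderm, all 9 epiblast and all 9 primitive endoderm markers among the tested genes.

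The 10 genes differed widely in level. *Khdc3* had the highest mean, at 168 FPKM over the 6 libraries, followed by *Ooep* with 81.6, *Tle6* with 3.16, *Padi6* with 1.20 and *Zp3* with 0.922. The means of *Gdf9*, *Nlrp5*, *Zar1* and *H1foo* were 0.0887, 0.0713, 0.0277 and 0.0167 FPKM, and *Oosp1* was listed at 0 in every library. Among protein-coding genes, 97.3% had a lower mean than *Khdc3* and 95.2% a lower mean than *Ooep*, whereas 37.6% had a lower mean than *Nlrp5*. The ranges over the libraries were separate between *Ooep* and *Tle6*, a 25.8-fold step in the mean, and between *Tle6* and *Padi6*. All other neighbours in this order had overlapping ranges. *Khdc3* and *Ooep* together made up 96.3% to 98.3% of the FPKM summed over the 10 genes in a library.

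**Figure D1:**
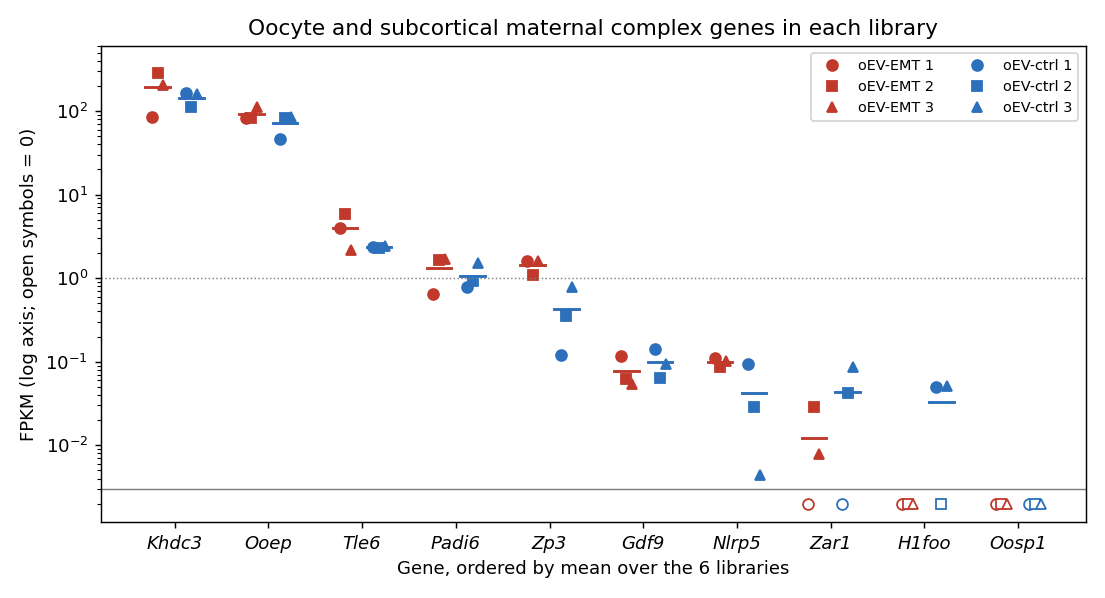
FPKM of the 10 genes on a log axis in the 3 oEV-EMT libraries (red) and the 3 oEV-ctrl libraries (blue), with group means as bars, the limit of 1 FPKM as a dotted line and values of 0 as open symbols. *Khdc3* and *Ooep* stand above 45 FPKM in every library, and *Zp3* is the gene whose groups do not overlap.

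The promoter windows of *Khdc3*, *Ooep* and *Zp3* are shown because the former 2 carry nearly all the signal of these genes and *Zp3* is the one whose groups were apart. They are from RefSeq on GRCm38.p6, run from 250 bases before to 50 bases after the start site and are written along the gene. The RefSeq start sites of *Khdc3*, *Ooep* and *Zp3* lie inside the gene coordinates given below, which are from GENCODE. The window of *Khdc3* lies wholly inside its gene coordinates. Capitals mark the E-box, CANNTG on either strand, to which basic helix-loop-helix factors bind, FIGLA of the oocyte among them.
Khdc3, chr9:73102148-73102447, plus strand: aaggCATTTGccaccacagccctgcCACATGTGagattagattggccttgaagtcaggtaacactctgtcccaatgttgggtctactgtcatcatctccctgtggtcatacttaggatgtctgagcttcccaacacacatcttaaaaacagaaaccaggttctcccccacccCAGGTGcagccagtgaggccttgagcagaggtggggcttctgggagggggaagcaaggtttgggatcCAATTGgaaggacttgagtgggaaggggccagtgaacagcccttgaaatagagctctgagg
Ooep, chr9:78378539-78378838, minus strand: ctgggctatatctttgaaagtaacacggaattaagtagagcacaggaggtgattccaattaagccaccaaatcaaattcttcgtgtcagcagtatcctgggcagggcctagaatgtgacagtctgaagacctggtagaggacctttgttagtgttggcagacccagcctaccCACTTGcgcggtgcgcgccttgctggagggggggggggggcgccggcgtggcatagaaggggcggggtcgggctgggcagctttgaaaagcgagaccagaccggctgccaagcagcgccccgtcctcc
Zp3, chr5:135979855-135980154, plus strand: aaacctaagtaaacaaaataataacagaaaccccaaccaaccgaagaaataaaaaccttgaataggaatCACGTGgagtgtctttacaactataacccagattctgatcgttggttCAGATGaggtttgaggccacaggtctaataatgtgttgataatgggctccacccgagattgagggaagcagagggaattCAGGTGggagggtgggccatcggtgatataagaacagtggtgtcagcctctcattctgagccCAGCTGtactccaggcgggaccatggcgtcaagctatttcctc
The E-boxes began at -246, -225, -223, -78 and -11 from the start site in *Khdc3*, at -78 in *Ooep*, and at -181, -134, -55 and 7 in *Zp3*. A window was found for 9 of the 10 genes, *H1foo* through its RefSeq name *H1f8*, and all 9 held an E-box in at least 1 window, as did 72.3% of all 32851 windows of this length. The letters TAATTG, a core bound by the oocyte factor NOBOX, were in the windows of *Ooep* and *Padi6* and in 8.0% of all windows. TATAAA was in 1 of the 2 windows of *Nlrp5* and in 13.6% of all windows. Such a match describes the letters of a window and not a binding site.

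In the fit over all genes, 0 of the 10 genes passed both an adjusted p-value of 0.05 and a log2 fold change of 1 in either direction (limma with Benjamini-Hochberg adjustment), as did 0% of all tested genes. Only 5 of the 10, namely *Khdc3*, *Ooep*, *Tle6*, *Padi6* and *Zp3*, were high enough to be tested. An unadjusted p-value up to 0.05 was reached by 1 of the 5, *Zp3*, higher in oEV-EMT, where 12.8% of all tested genes (1527) were higher and 2.55% (304) lower at that limit. After median-of-ratios scaling 779 of the tested genes were higher and 765 lower, and after upper quartile scaling 717 and 797. In 1 of the 9 genes above 0, again *Zp3*, the oEV-EMT group lay wholly above the oEV-ctrl group, and in 0 of them wholly below. Of all genes above 0 in any library, 10.1% lay above in this way and 3.48% below, and of the tested genes 18.1% and 4.34%.

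*Khdc3* (ENSMUSG00000092622, chr9:73101836-73104438 on the plus strand of GRCm38) encodes FILIA, an RNA-binding KH-domain protein of the complex that helps to keep embryos euploid. In oEV-EMT it stood at 83.9, 288 and 203 FPKM, in oEV-ctrl at 162, 111 and 159, with means of 192 ± 103 and 144 ± 28.6 (SD, n = 3 each). The oEV-EMT libraries held both the lowest value and the 2 highest, so that the groups overlapped (exact two-sided permutation test, p = 0.5, where 3 libraries against 3 cannot give less than 0.1). Its estimate on the log2 scale was 0.26 with a standard error of 0.42 (adjusted p = 0.797, limma). Its direction rests on single libraries, with 0.77 without oEV-EMT 1 and -0.12 without oEV-EMT 2. Stretches of 50 bases shared with *Gm20509*, a gene that overlaps *Khdc3* on the same strand, made up 34.1% of those of *Khdc3*, and the mean of *Gm20509* was 0.131 FPKM.

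*Ooep* (ENSMUSG00000032346, chr9:78376109-78378725, minus strand) encodes FLOPED, another KH-domain protein of the complex. Its FPKM was 81.7, 82.6 and 112 in oEV-EMT and 45.7, 83.2 and 84.2 in oEV-ctrl, with means of 92.2 ± 17.5 and 71.0 ± 21.9 (SD, n = 3 each). Only oEV-ctrl 1 stood below the rest, and the other 2 oEV-ctrl values lay between those of oEV-EMT (p = 0.6, exact permutation). The log2 fold change of *Ooep* was 0.41 with a standard error of 0.27 (adjusted p = 0.492, limma), and 0.12 without oEV-ctrl 1. *Khdc3* and *Ooep* did not keep a fixed proportion. The ratio of *Khdc3* to *Ooep* in FPKM was 1.03, 3.49 and 1.80 in oEV-EMT and 3.54, 1.33 and 1.88 in oEV-ctrl, with low and high ratios in both groups.

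*Tle6* (ENSMUSG00000034758, chr10:81590904-81601073, minus strand) encodes a Groucho-type co-repressor relative that binds within the complex. Its FPKM was 3.96, 5.78 and 2.19 in oEV-EMT and 2.34, 2.29 and 2.42 in oEV-ctrl. The oEV-ctrl values lay close together, with oEV-EMT 1 and 2 above and oEV-EMT 3 below them (p = 0.4, exact permutation). For *Tle6* a log2 fold change of 0.50 was found (limma, standard error 0.28, adjusted p = 0.414), which was 0.79 without oEV-EMT 3 and 0.25 without oEV-EMT 2.

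*Padi6* (ENSMUSG00000040935, chr4:140727355-140742643, minus strand) encodes a member of the peptidylarginine deiminase family that is needed for the cytoplasmic lattices of the oocyte. It had 0.646, 1.65 and 1.70 FPKM in oEV-EMT and 0.781, 0.928 and 1.496 in oEV-ctrl, each group with values under and over 1 (p = 0.6, exact permutation). Its log2 fold change was 0.15 (limma, adjusted p = 0.798, with 0.25 as the standard error). It was 0.39 without oEV-EMT 1 and 0.03 without oEV-EMT 3.

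*Nlrp5* (ENSMUSG00000015721, chr7:23385889-23441922, plus strand) encodes MATER, an NLR protein at the core of the complex and an early example of a maternal effect gene of the mouse. Its FPKM was 0.111, 0.0867 and 0.102 in oEV-EMT and 0.0945, 0.0287 and 0.00440 in oEV-ctrl. These values stand for about 29.5, 13.5 and 18.5 reads and 12.4, 5.1 and 1.0 reads, taken over its longest transcript. The highest oEV-ctrl value lay between the oEV-EMT values (exact permutation test, p = 0.2), and *Nlrp5* was too low for the fit. *Nlrp5* did not exceed 0.111 FPKM in any library, while *Khdc3* and *Ooep*, whose products sit in the same complex, did not fall under 83.9 and 45.7. Of its stretches of 50 bases 6.55% are shared, mostly with the pseudogene *Nlrp5-ps*, whose mean of 0.445 FPKM was above its own, so that the level of *Nlrp5* is uncertain. Scaled to a sum of 1000000 per library, *Nlrp5* lay wholly higher in oEV-EMT, as did 12.3% of all genes above 0. With median-of-ratios and upper quartile scaling its groups still overlapped.

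*Zp3* (ENSMUSG00000004948, chr5:135980099-135988624, plus strand) encodes a glycoprotein of the zona pellucida, the coat of the egg. It had 1.58, 1.08 and 1.61 FPKM in oEV-EMT and 0.120, 0.356 and 0.792 in oEV-ctrl, or about 158, 62.9 and 110 reads against 5.9, 23.6 and 69.8. The groups were apart, the lowest oEV-EMT value being above the highest of oEV-ctrl, with means of 1.42 ± 0.301 and 0.422 ± 0.341 (SD, n = 3 each; exact permutation test, p = 0.1, the smallest possible). The ratio of the means was 3.37. Its log2 fold change was 0.79 with a standard error of 0.23 (adjusted p = 0.174, limma), or 0.62 above the median of all tested genes, and it was 1.75 with a pseudocount of 0.1 in place of 1. *Zp3* had at least 1 FPKM in all 3 oEV-EMT libraries and in 0 oEV-ctrl libraries, so it entered the fit through the group in which it is high, as 74 genes did in all, against 17 that entered through oEV-ctrl alone. With a filter on the mean of all libraries in its place, at least 0.5 FPKM, the adjusted p-value was 0.203. Without oEV-ctrl 1, the library with the lowest value and the lowest depth, the log2 fold change was 0.63. No other listed gene shared a stretch of 50 bases with *Zp3*.

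**Figure D2:**
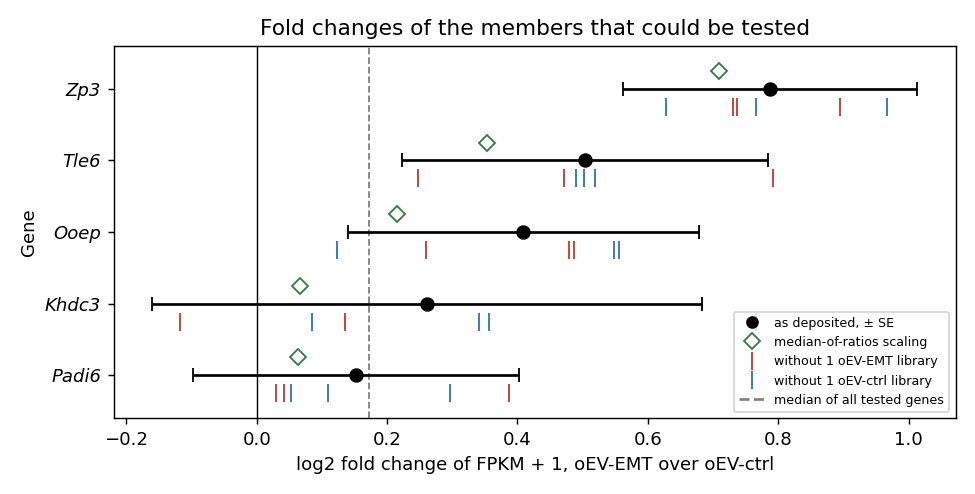
Log2 fold changes of FPKM + 1, oEV-EMT over oEV-ctrl, of the 5 genes that could be tested, as deposited with their standard error (black), after median-of-ratios scaling (green) and with each library left out (red and blue ticks). All 5 lie above 0 as deposited, and *Khdc3* is the one that crosses 0, without oEV-EMT 2.

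*Gdf9* (ENSMUSG00000018238, chr11:53431023-53437904, plus strand) encodes a growth factor by which the oocyte directs the surrounding granulosa cells. Its FPKM was 0.117, 0.0623 and 0.0548 in oEV-EMT and 0.140, 0.0642 and 0.0935 in oEV-ctrl, about 4.9 to 15.8 reads a library (exact permutation test, p = 0.5). The values of both groups covered nearly the same range.

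*Zar1* (ENSMUSG00000063935, chr5:72576806-72581254, minus strand), which encodes an RNA-binding protein needed at the passage from oocyte to embryo, was listed at 0 in oEV-EMT 1 and oEV-ctrl 1. In the other libraries it had 0.0290 and 0.00796 FPKM in oEV-EMT and 0.0417 and 0.0875 in oEV-ctrl, at most about 14.5 reads (exact permutation test, p = 0.4). Other listed genes share 28.4% of its stretches of 50 bases, so that its low values are uncertain. *H1foo* (ENSMUSG00000042279, chr6:115944938-115950236, plus strand), the linker histone of the oocyte, had 0.0495 FPKM in oEV-ctrl 1 and 0.0506 in oEV-ctrl 3 and was listed at 0 in the other 4 libraries, which include all 3 of oEV-EMT. These 2 values stand for about 2.2 and 4.0 reads (exact permutation test, p = 0.4), and *H1foo* was too low for the main fit. *Oosp1* (ENSMUSG00000041857, chr19:11667460-11691150, minus strand), a secreted protein of the oocyte, was listed at 0 throughout. No difference between the groups was found in *Gdf9*, *Zar1* or *H1foo*, and so few reads from 3 libraries a group cannot exclude one. *Oosp1* gave no values to compare.

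The remaining genes of the oocyte programme were taken from 5 lists of 59 genes, of which 15 could be tested. Of these, 0 passed both thresholds (limma), as did 0% of all tested genes. An unadjusted p-value up to 0.05 was reached by 1 of them, *Tcl1*, higher in oEV-EMT. At that limit 12.8% of all tested genes were higher and 2.55% lower. Among 16 other NLRP, KHDC1 and associated genes, 5 were tested and 11 stayed under 1 FPKM in every library. *Nlrp4c* led this list with 2.23 to 6.68 FPKM and a log2 fold change of 0.20 (adjusted p = 0.790, limma). *Khdc1c* and *Khdc1a*, further KH-domain genes, had log2 fold changes of -0.73 and -0.45 (adjusted p = 0.348 and 0.342), and the oEV-EMT values of *Khdc1a* lay below all oEV-ctrl values. The KH-domain genes that were tested thus included positive and negative fold changes, none past the threshold.

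Of 7 oocyte transcription factors, 2 were tested. *Sohlh2* had a log2 fold change of 0.49 and *Taf4b* one of -0.38 (adjusted p = 0.368 and 0.451, limma), while *Figla* reached 1.28 FPKM in oEV-EMT 2 alone. Of 9 other zona, egg-surface and secreted genes, 8 stayed under 1 FPKM in every library. The exception was *Zp2*, another zona glycoprotein, with 5.23, 2.70 and 2.70 FPKM in oEV-EMT and 2.08, 2.87 and 1.51 in oEV-ctrl. The groups overlapped in *Zp2*, with a log2 fold change of 0.50 (limma, adjusted p = 0.407, standard error 0.28). *Omt2a* and *Omt2b*, the next in this list, had at most 0.154 and 0.133 FPKM. *Zp1*, the remaining zona gene, had at most 0.0237 FPKM, so that the zona genes differed from each other in level.

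Of 20 other maternal factors, 6 were tested. *Dppa3*, which protects the maternal genome from demethylation and is also a gene of pluripotent cells, had the highest level, with 249, 1145 and 911 FPKM in oEV-EMT and 437, 712 and 1058 in oEV-ctrl (log2 fold change -0.11, adjusted p = 0.949, limma). *Tcl1*, a co-activator of AKT kinase, had 51.2, 18.5 and 20.6 FPKM against 10.7, 15.7 and 13.9 without overlap (log2 fold change 0.97, adjusted p = 0.251, limma), and *Spin1* had a log2 fold change of 0.10. *Obox6*, an oocyte homeobox gene, ranged from 0.754 FPKM in oEV-EMT 1 to 46.8 in oEV-EMT 3, with 4.24 to 6.48 in oEV-ctrl. The lowest and the highest value of *Obox6* were therefore both in oEV-EMT (log2 fold change 1.02, standard error 1.36, adjusted p = 0.760, limma). *Obox8* was above 0 in oEV-EMT 2 alone, at 3.35 FPKM, and *Obox5* had at most 0.0279.

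**Figure D3:**
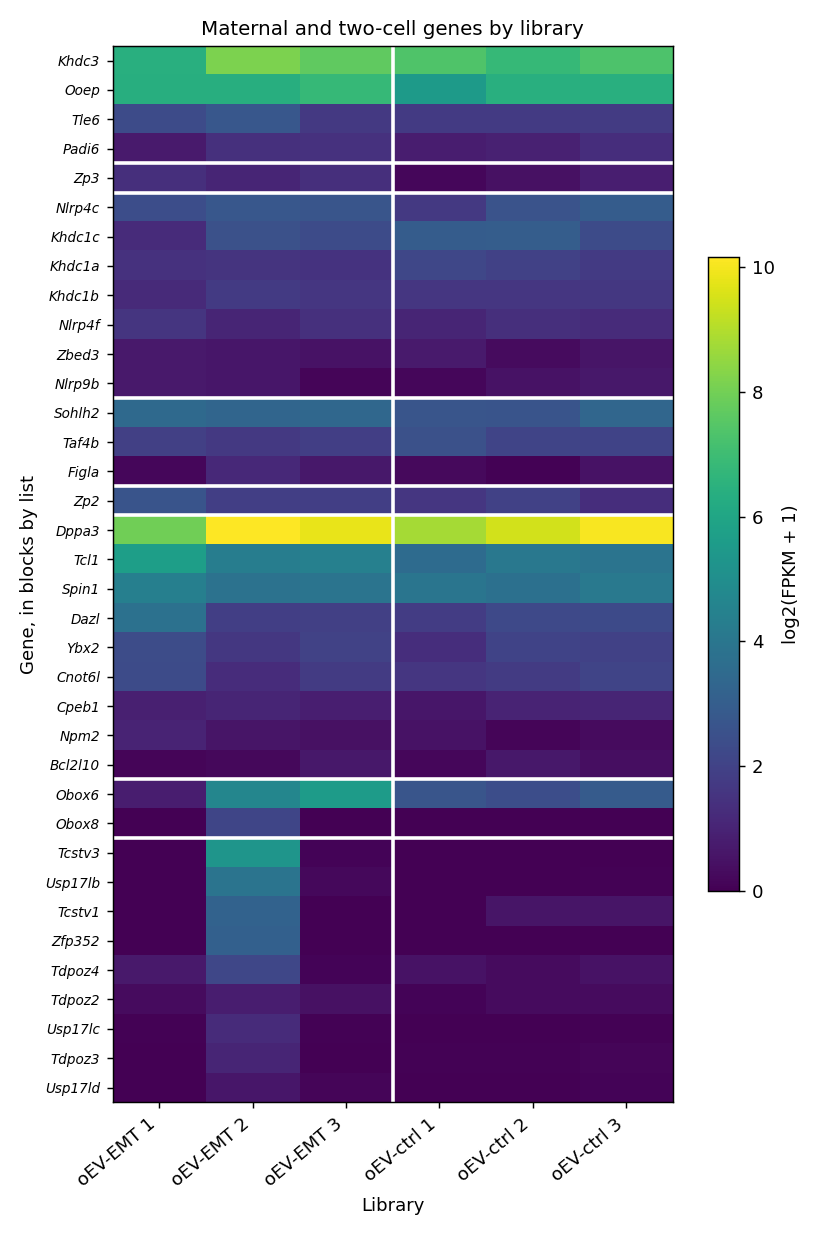
Heat map of log2(FPKM + 1) of 36 genes with at least 0.5 FPKM in a library, in blocks of the complex, *Zp3*, other NLRP and KHDC1 genes, oocyte transcription factors, zona genes, maternal factors, oocyte homeobox genes and two-cell genes, by library. *Dppa3*, *Khdc3* and *Ooep* are high in all 6 libraries. The two-cell genes shown are highest in oEV-EMT 2. Those under 0.5 FPKM in every library are left out, the *Zscan4* genes and *Duxf3* among them.

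Genes of the two-cell stage, which are switched on with the embryonic genome and silenced afterwards, were looked at beside the maternal genes. Of 19 such genes, 0 could be tested, and their summed FPKM was 76.0 in oEV-EMT 2 against 0.576 to 1.63 in the other 5 libraries. This sum does not stand for the whole list. *Zscan4a* to *Zscan4f* and *Duxf3* were listed at 0 in oEV-EMT 2 and had at most 0.0242 FPKM elsewhere. In oEV-EMT 2, *Tcstv3* had 38.6 FPKM, *Usp17lb* 13.9 and *Tcstv1* 8.08, while no other library exceeded 0.510 FPKM in any of these 3 genes. The same library held the highest *Khdc3* and *Tle6* values, at 288 and 5.78 FPKM, but not the highest of *Zp3*, *Ooep*, *Padi6*, *Nlrp5*, *Gdf9* or *Zar1*. Whether this has a part in the values of *Khdc3* and *Tle6* was not tested, and their values without oEV-EMT 2 are given above.

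Markers of cells that surround the egg or meet it in the oviduct were read beside *Zp3*. Of 15 cumulus and granulosa cell markers, 13 stayed under 1 FPKM in every library and 6 were listed at 0 throughout, *Amh*, *Fshr*, *Lhcgr* and *Cyp19a1* among them. The sum of this list was 2.76 to 4.13 FPKM in oEV-EMT and 2.45 to 3.51 in oEV-ctrl. *Amhr2* had 1.03 to 2.07 FPKM in oEV-EMT against 0.464 to 0.737 in oEV-ctrl, in the direction of *Zp3* (adjusted p = 0.222, limma), and like *Zp3* it entered the fit through the oEV-EMT libraries alone. *Cyp11a1*, for steroid synthesis, had 1.00 to 1.18 against 1.19 to 2.36, in the other direction (adjusted p = 0.375). *Star* had at most 0.610 FPKM. Sums of 6 sperm markers were 0.472 to 3.40 FPKM in oEV-EMT and 1.17 to 1.33 in oEV-ctrl, led by *Tnp2*, *Prm2* and *Prm1*, and those of 5 oviduct markers, led by *Ovgp1*, *Tekt1* and *Pax8*, did not exceed 0.606 FPKM. The part of such cells in the *Zp3* values was not tested, and in pools a lower number of cells and less RNA per cell cannot be told apart.

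**Figure D4:**
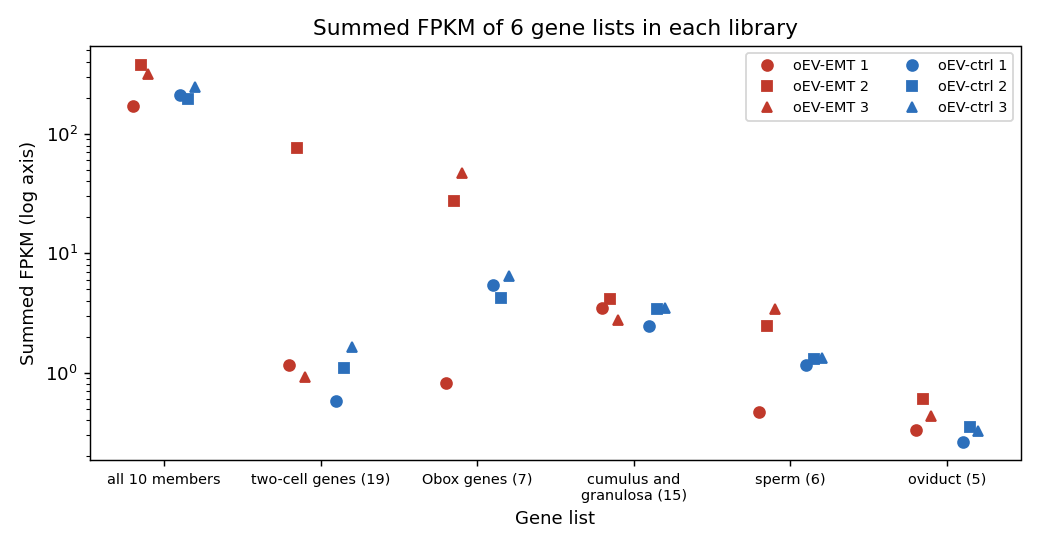
Summed FPKM of 6 gene lists in each library on a log axis, oEV-EMT in red and oEV-ctrl in blue. The sums of the 10 oocyte and complex genes overlap between the groups, from 172 to 380 in oEV-EMT and from 198 to 248 in oEV-ctrl, and the two-cell genes stand at 76.0 in oEV-EMT 2.

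The lineages of the blastocyst were described by the same fit. Of 9 trophectoderm markers, led by *Krt18*, *Krt8* and *Gata3*, 0 reached an unadjusted p-value of 0.05. Of 9 epiblast markers, 3 were higher at that limit and 0 lower, and *Nanog* had 53.15, 46.2 and 56.1 FPKM in oEV-EMT against 12.98, 25.8 and 37.5 in oEV-ctrl (log2 fold change 1.11, adjusted p = 0.187, limma). The other 2 were *Pou5f1* and *Fgf4*, which were picked out after their values were seen, with log2 fold changes of 0.97 and 0.99. *Zfp42* and *Tdgf1* had log2 fold changes of -0.71 and 0.32 (adjusted p = 0.647 and 0.698). Of 9 primitive endoderm markers, 2 were higher and 0 lower at that limit, *Gata4* and *Sox17* (log2 fold changes 0.82 and 0.95, adjusted p = 0.174 and 0.302, limma). The highest of this list, *Dab2*, *Gata6* and *Lama1*, had log2 fold changes of -0.26, -0.19 and 0.33. At that limit 12.8% of all tested genes were higher. The median log2 fold changes of the epiblast and primitive endoderm lists were 0.07 and 0.08, beside 0.17 over all tested genes. Over all 12 lists of other genes, *Tcl1* and *Amhr2* included, 7 of 44 tested genes had an unadjusted p-value up to 0.05, all higher in oEV-EMT. That is 15.9%, beside 15.4% of all tested genes. After median-of-ratios scaling it was 11 of 44 or 25%, with 6 higher and 5 lower, beside 12.9% of all tested genes, so that neither the nearness of both shares nor the single direction was kept.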

How the data were processed

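FPKM from 6 libraries of mouse blastocyst pools were analysed. The authors isolated polyadenylated RNA, aligned paired reads, assembled transcripts with StringTie and deposited 1 FPKM value per gene and library. The submitters' processing notes give mm10, and the aligner is not given in the sources used here. The methods name TPM, but sums per library ranged from 1293170 to 1551570 and differed, so the deposited values were taken as FPKM. The 10 genes and all lists were chosen with earlier results of these data known. Identifiers were matched to symbols and to GRCm38 coordinates through GENCODE M21, with 55141 of 55487 Ensembl identifiers matched.

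Genes with at least 1 FPKM in at least 3 libraries were fitted as log2(FPKM + 1) with limma 3.58.1 in R 4.3.3, with trended and robust variance and Benjamini-Hochberg adjustment over 11924 genes. The count test of the methods needs counts and was not used. Thresholds were those of the methods, an adjusted p-value of 0.05 and an absolute log2 fold change of 1. Single genes were compared by exact two-sided permutation of the FPKM with scipy 1.17.1. The fit was tested on simulated data. Depth was derived from steps of low values in genes with 1 transcript of at least 3000 bases, of which 67.2% to 76.8% lay within 0.2 of a whole step, and intervals were not formed from it. All 10 genes were named, the 3 highest of each other list, and the 5 genes nearest to the highest of the 10. *Zp1*, *Pou5f1*, *Fgf4*, *Gata4*, *Sox17*, the markers listed at 0 and the neighbouring genes fall outside this rule and were picked after their values were seen. There were 16 alternatives, 1 of them chosen after seeing the data. The main fit did not pair libraries by replicate number, and what the numbers stand for is not given in the sources used here. Real-time RT-PCR, fluorescence and TUNEL data were not analysed here.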

Additional observations from a re-analysis of the deposited data

How the results depend on the processing

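With each of 16 alternatives the log2 fold changes of *Zp3*, *Ooep*, *Tle6* and *Padi6* stayed above 0, and 0 of the 10 genes passed both thresholds. That of *Khdc3* turned to -0.12 without oEV-EMT 2, was 0.77 without oEV-EMT 1 and stayed above 0 in the other 15. For *Zp3* the range was 0.63 to 1.75, with adjusted p-values of 0.123 to 0.609 (limma). The median over all tested genes moved from 0.17 to 0.01 with median-of-ratios and to -0.00 with upper quartile scaling. The count of genes in the other lists with an unadjusted p-value up to 0.05 went from 7 to 11 of 44 with both of these scalings, which is 25%, beside 12.9% and 12.7% of all tested genes. Of these, 6 were higher and 5 lower with the former scaling, and 7 and 4 with the latter. Scaling to a sum of 1000000 raised the number of members whose groups do not overlap from 1 to 2 (*Nlrp5* added). Without the new_gene entries it was 3 (*Ooep* added), and all of these lay higher in oEV-EMT. Among all genes above 0, the share wholly higher rose too, from 10.1% to 12.3% and 12.5%. The share wholly lower fell from 3.48% to 2.60% and 2.48%. Both scalings raised the median log2 fold change of all tested genes, to 0.23 and 0.26, so the higher count is not particular to the members.

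With each library left out in turn, 0 to 17 genes of the whole table passed both thresholds, 1 to 2 members had an unadjusted p-value up to 0.05, beside 9.85% to 18.3% of all tested genes, and 1 to 4 members had groups without overlap. Of these, 1 to 3 lay wholly higher in oEV-EMT, beside 13.3% to 19.2% of all genes above 0, and 0 to 1 wholly lower, beside 5.29% to 9.45%. Those lower were *Gdf9* without oEV-EMT 1, *Zar1* without oEV-ctrl 1 and *H1foo* without oEV-ctrl 2. *Khdc3* joined *Zp3* at that limit without oEV-EMT 1, and *Tle6* without oEV-EMT 3. The 17 genes were found without oEV-ctrl 3, 4 without oEV-EMT 1 and 1 without oEV-EMT 3.

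With the replicate number as a block, 21 genes of the whole table passed both thresholds and 0 members did. Correlations of same-numbered libraries after removal of the group means were 0.12, -0.04 and 0.04, and those of differently numbered libraries ran from -0.13 to 0.12. So few pairs cannot show whether same-numbered libraries shared a batch or day. FPKM hold no read totals, and values under 0.1 FPKM rest on few reads.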

Other observations

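*Khdc3* was compared with all other tested genes by the root mean square distance of log2(FPKM + 1), each gene centred on its mean over the 6 libraries. Its own spread was 0.57 on this scale, and the median distance to other genes was 0.65. The nearest were *Tesc* with a distance of 0.13, *Bag1* with 0.14, and *Gm6880*, *Fkbp6* and *Acsm3* with 0.16, 0.16 and 0.17. *Tesc* had 5.85, 26.8 and 13.6 FPKM in oEV-EMT and 12.1, 8.95 and 12.2 in oEV-ctrl, and *Bag1*, a co-chaperone gene, 37.7, 126 and 89.5 against 84.7, 59.0 and 65.1. In each of these genes oEV-EMT 2 was the highest library. With 6 libraries and 11924 genes near patterns are many, and this is a description.

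*Ooep* and *Khdc3* lie on the same chromosome but not side by side, and the genes within 50000 bases of each were read out after the data were seen. *Dppa5a*, a KH-domain gene of pluripotent cells that lies 7932 bases from *Ooep*, had 9758, 11901 and 11864 FPKM in oEV-EMT and 20192, 17187 and 15016 in oEV-ctrl, the oEV-EMT group lying wholly below the other. *Ooep*, between 45.7 and 112 FPKM, did not show this order. Of 7 genes near *Ooep*, 1 lay wholly higher in oEV-EMT (*Gm8093*, at most 0.112 FPKM) and 1 wholly lower, and of 5 near *Khdc3* 3 lay wholly higher and 0 lower, beside 10.1% and 3.48% of all genes above 0. Next to *Khdc3*, *Rab27a* had 2.24, 1.497 and 0.540 FPKM in oEV-EMT against 0.217, 0.355 and 0.482 in oEV-ctrl without overlap. The other 2 were *Gm27186* and *Gm20509*, with at most 0.393 and 0.381 FPKM, and *Rsl24d1* and *Gm38215* overlapped between the groups. *Gm27186* lies inside *Rab27a* on the same strand, and *Gm20509* overlaps *Khdc3* itself, so that the 3 are not independent entries.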
